A study of Mus musculus with 30 samples.

Results

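Early meiotic genes were examined in cultured lines of mouse spermatogonial stem cells (SSCs), a cell type that divides by mitosis and precedes meiosis. The study describes such cultures as mixed, with SSCs and progenitor cells, and whether any cell had entered meiosis was not tested. The group of early meiotic genes holds 8 that were listed by name: *Sycp1*, *Sycp2*, *Sycp3*, *Taf7l*, *Smc1b*, *Rec8*, *Stag3* and *Hormad1*. All 8 had an RNA level among the 13904 genes of the RNA-seq table, and 5 had a half-life among the 5806 transcripts of the half-life tables. RNA-seq was carried out on 1 library of a Nanos2TAG/+ line (line 4) and 1 library of a Nanos2TAG/TAG line (line 5). Half-lives came from SLAM-seq, in which new RNA is labelled with 4-thiouridine and its loss is followed after the label is removed. There were 12 SLAM-seq libraries per line, over 6 chase times up to 1440 min with 2 technical replicates each, and they yielded 1 half-life per transcript and line.

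Both lines carried the Nanos2TAG allele, an epitope-tagged *Nanos2*, in 1 copy (TAG/+) or in both copies (TAG/TAG), so no group here lacks NANOS2. The lines were derived from testes at postnatal day 7, were grown on feeder cells and were depleted of feeders for RNA-seq per the labels, whereas the study's methods describe RNA from SSCs that were sorted away from residual feeder cells. Per the labels, RNA of the TAG/+ library was extracted with QIAzol and RNA of the TAG/TAG library with Trizol, so genotype, cell line and reagent cannot be told apart. The RNA-seq columns bear letter codes only, and GG was read as TAG/TAG and Gp as TAG/+. With 1 library per line there was no replicate, and no test was made. Intervals on RNA levels and on their ratios are exact 95% intervals that cover counting error only.

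In the prophase of meiosis, homologous chromosomes are joined by the synaptonemal complex. SYCP2 and SYCP3 build its axial elements along each chromosome, SYCP1 forms the transverse filaments between them, and HORMAD1 sits on axes that have not yet paired. Under these lies cohesin, the ring that holds sister chromatids together, in which SMC1B, REC8 and STAG3 take the places of the mitotic subunits SMC1A, RAD21 and STAG1 or STAG2. TAF7L is a germ-cell paralog of TAF7, a subunit of the general transcription factor TFIID. NANOS2 is an RNA-binding protein of male germ cells that is required for SSC maintenance. For male gonocytes of the embryo, the study cites a role of NANOS2 in suppressing aberrant meiotic entry.

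The sequences that bear on NANOS2 binding and on transcription of these genes are shown next. The 3′ UTR of each gene was searched on the sense strand for the forms of a NANOS2 motif, which are AUGAAAU or AUGAAUU and, with U in the place of G, AUUAAAU or AUUAAUU. In the lines below, the motif is in capitals within its surrounding bases, and the bases were read from GRCm38.
*Sycp1* (chr3:102818781-102818787, minus strand, exon 33): augaaaaacAUUAAAUaguuaucuu
*Sycp1* (chr3:102818717-102818723, minus strand, exon 33): uauuuuaaaAUUAAUUacagaaaua
*Sycp1* (chr3:102818528-102818534, minus strand, exon 33): uuaagauuuAUUAAUUuuucuuuau
*Sycp2* (chr2:178346310-178346316, minus strand, exon 44): cugcugucaAUGAAUUuuaugauua
*Sycp2* (chr2:178345402-178345408, minus strand, exon 44): acugcuaagAUUAAUUuuguaacuc
*Taf7l* (chrX:134460383-134460389, minus strand, exon 13): caauuugagAUUAAAUguguguauu
Coordinates are those of the motif, and all 6 matches lie in the last exon of the transcript.

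The 3 genes with a match were *Sycp1*, *Sycp2* and *Taf7l*, which is 37.5% of the 8 genes, beside 38.7% of 12344 genes with an RNA level and a 3′ UTR. The share with a match is therefore close to that of genes at large. The 3′ UTRs of the group were short, with a median of 324 bases beside 1044 bases, and that of *Rec8* had 34 bases. Per length, the group had 1.92 matches per kb beside 0.494 per kb, a density that rests on the 6 matches shown. Among 2957 genes with a 3′ UTR of up to 400 bases, 10.7% had a match, at 0.580 per kb. Of the 3 genes with a match, only *Sycp1* (326 bases, 3 matches) was in that length class, since *Sycp2* had 1040 bases and *Taf7l* 503. The share and density of the whole group are therefore not like for like with those of this class. *Sycp3*, *Smc1b*, *Rec8*, *Stag3* and *Hormad1* had no match in these 3′ UTRs.

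The promoters were searched over 250 bases before and 50 bases after the RefSeq gene start on both strands. CACGTG is the E-box form read by basic helix-loop-helix factors of the MYC and MAX family, and TCCCGC, or GCGGGA on the other strand, is the core read by E2F factors. MGA with MAX, and E2F6, belong to a Polycomb complex (PRC1.6) known to silence germline genes in other cells. The E-box sites, held by 5 of the 8 genes, are all shown, whereas of the E2F sites, held by 6 genes, only some are printed. The E-box sites are given on the gene's strand with the E-box in capitals, and coordinates (GRCm38.p6) cover the printed bases.
*Sycp1* (chr3:102936181-102936202, minus strand): gaacccggCACGTGggaaggga
*Sycp3* (chr10:88459515-88459536, plus strand): ttggctccCACGTGagaacggg
*Sycp3* (chr10:88459536-88459557, plus strand): gcatggagCACGTGctaggagg
*Taf7l* (chrX:134476526-134476547, minus strand): tcttatacCACGTGacagaact
*Stag3* (chr5:138280331-138280352, plus strand): ctggagccCACGTGacaggact
*Hormad1* (chr3:95559612-95559633, plus strand): gggtgcgcCACGTGccagtgac
*Hormad1* (chr3:95559649-95559670, plus strand): gcactgcgCACGTGctgaccgg

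An E-box was thus found in 62.5% of the 8 promoters, beside 10.3% of 10010 promoters of genes with an RNA level and 7.24% of all 27025 promoters of this length. The E2F core was found in 6 of 8 (75%), beside 35.3% and 20.02%, in all but *Sycp2* and *Taf7l*. In *Stag3* it lay near the RefSeq gene start (ccgtgcctTCCCGCgttttttt, chr5:138280499-138280520, plus strand), and *Smc1b* held a similar stretch (gaatttctTCCCGCgctttttt, chr15:85131991-85132012, minus strand). The GENCODE locus of *Stag3* begins further upstream, at chr5:138280240, so its E-box and E2F core lie inside that locus. The counts of motifs rest on the RefSeq starts, and GENCODE starts were not tried. CNCCTCAG, a motif of STRA8, was found in 1 of 8 promoters, that of *Sycp1*, beside 9.38% of promoters of genes with an RNA level. *Sycp2* alone held none of the 3 motifs. The ratio of observed to expected CpG had a median of 0.795 in the group and 0.750 in genes with an RNA level, and ranged from 0.363 (*Sycp2*) to 1.08 (*Smc1b*). These matches describe sequence and were not tested for occupancy.

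All 8 genes had reads in both libraries, and their levels spanned from under 1 to over 300 FPKM (fragments per kilobase of transcript, scaled by a factor for each library). The median of the group was 18.4 FPKM in TAG/+ and 25.9 in TAG/TAG, beside 10.2 and 10.5 for all genes of the table. With the merged exon length in place of the mean transcript length, the group had 10.1 and 14.1 FPKM, beside 4.75 and 4.82 for 12544 genes. *Rec8*, *Stag3* and *Taf7l* were above 93% of genes in both lines, whereas *Sycp3* was above 34.9% of genes in TAG/+ and above 6.42% in TAG/TAG. The cohesin genes *Rec8* and *Stag3* were thus high and the axial element gene *Sycp3* low in the same libraries.

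**Figure D1:**
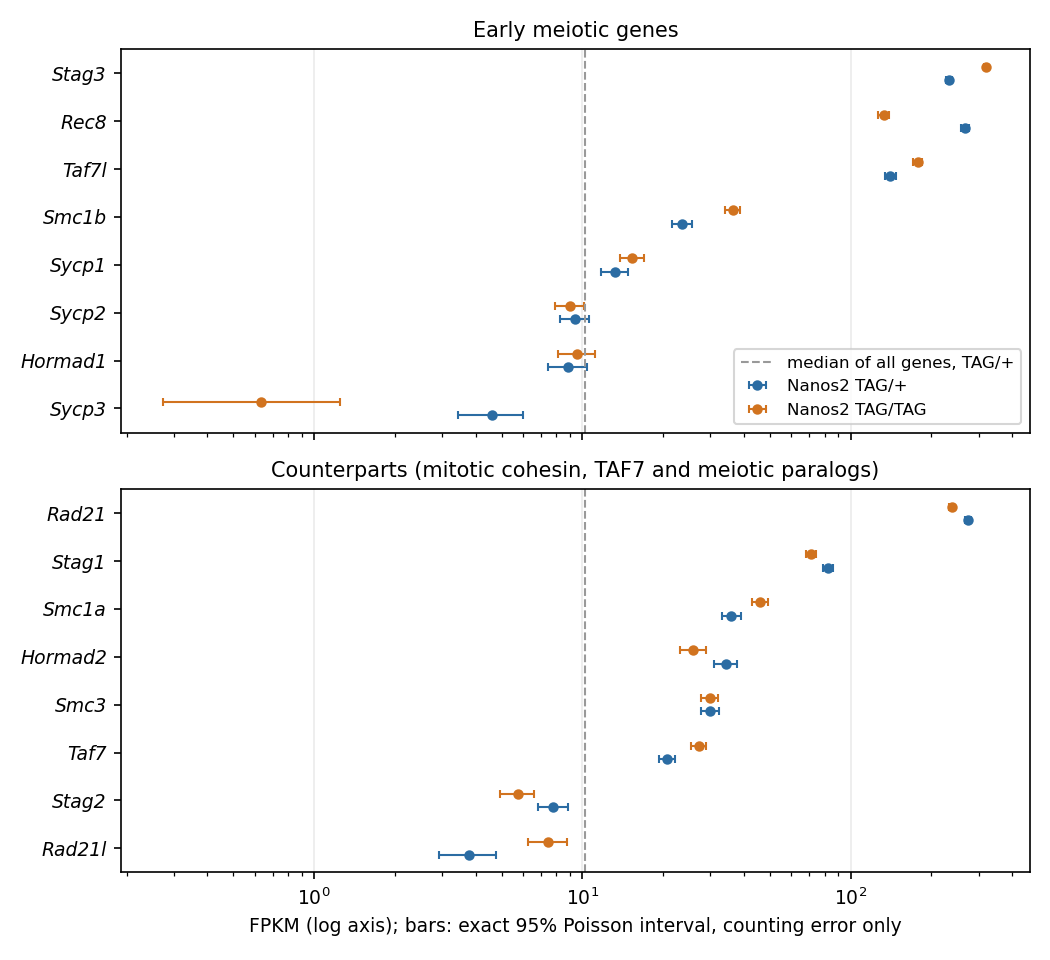
RNA level in FPKM (log axis) of the 8 early meiotic genes (top) and of their paralogs and *Smc3* (bottom) in the TAG/+ library (blue) and the TAG/TAG library (orange), with exact 95% Poisson intervals of the reads and the median gene of TAG/+ as a dashed line. *Stag3*, *Rec8* and *Taf7l* lie above 100 FPKM in both libraries, and *Sycp3* has the lowest deposited FPKM in both, below *Sycp2* in TAG/+ with this gene length and not with the others tried, and the widest interval on the log axis.

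*Stag3* (chr5:138280240-138312393, plus strand), the SA subunit of meiotic cohesin, had 233 FPKM (5889 reads, 227 to 239) in TAG/+ and 319 FPKM (8679 reads, 313 to 326) in TAG/TAG. *Rec8* (chr14:55618037-55625395, plus strand), the meiotic kleisin, had 267 FPKM (3001 reads, 257 to 276) and 133 FPKM (1609 reads, 126 to 140). *Smc1b* (chr15:85064689-85131964, minus strand), the meiotic SMC1 subunit, had 23.5 FPKM (563 reads, 21.6 to 25.6) and 36.4 FPKM (937 reads, 34.1 to 38.8). *Smc1b* was therefore the lowest of the 3 subunits in both lines. *Taf7l* (chrX:134460118-134476490, minus strand) had 141 FPKM (1915 reads, 134 to 147) and 178 FPKM (2613 reads, 171 to 185).

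The genes of the synaptonemal complex and its axis were at lower levels. *Sycp1* (chr3:102818499-102936100, minus strand) had 13.2 FPKM (284 reads, 11.7 to 14.8) in TAG/+ and 15.4 FPKM (356 reads, 13.8 to 17.0) in TAG/TAG. *Sycp2* (chr2:178345293-178407685, minus strand) had 9.38 FPKM (249 reads, 8.25 to 10.6) and 9.0 FPKM (257 reads, 7.93 to 10.2). *Hormad1* (chr3:95559677-95587671, plus strand) had 8.82 FPKM (139 reads, 7.42 to 10.4) and 9.56 FPKM (162 reads, 8.14 to 11.1). Among all genes of the table, these 3 genes stood near the median gene of each library, between its 47.0th and 58.4th percentiles. Among genes of 1 FPKM or more in both lines, the percentiles were 45.7 and 49.8 for *Sycp1*, 37.9 and 36.1 for *Sycp2*, and 36.5 and 37.4 for *Hormad1*. With the length of the principal transcript, in TAG/+, *Sycp1* had 7.57, *Sycp2* 3.99 and *Hormad1* 8.43 FPKM, beside a median gene of 7.10.

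*Sycp3* (chr10:88459569-88473236, plus strand) had 4.59 FPKM (54 reads, 3.45 to 5.99) in TAG/+ and 0.632 FPKM (8 reads, 0.273 to 1.25) in TAG/TAG. By the deposited FPKM it was the lowest of the 8 genes in both libraries, which in TAG/+ holds with the mean transcript length but not with the principal or merged length. The gene overlaps *Chpt1* on the opposite strand, and since the sources do not say that reads were counted by strand, reads of the shared stretch cannot be told apart. *Sycp1* likewise overlaps 3 pseudogenes and *Smc1b* 1 pseudogene on the opposite strand. Reads of 50 bases could also be shared with other places in the genome: 67.2% of the exonic 50-mers of *Hormad1*, 93.0% of those of *Sycp1* and 99.1% of those of *Stag3* occurred once, against 100% for the other 5 genes.

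In TAG/+ the order from high to low was *Rec8*, *Stag3*, *Taf7l*, *Smc1b*, *Sycp1*, *Sycp2*, *Hormad1* and *Sycp3*. In TAG/TAG it was *Stag3*, *Taf7l*, *Rec8*, *Smc1b*, *Sycp1*, *Hormad1*, *Sycp2* and *Sycp3*. Neighbours had separate counting intervals except *Sycp2* and *Hormad1*, which overlapped in both lines. FPKM depends on the gene length used, which the deposited values take as the mean of the annotated transcripts. With the length of the principal transcript, *Rec8* had 126 FPKM and *Stag3* 128 FPKM in TAG/+, so the order of these neighbours turned. With that length *Hormad1* was also above *Sycp1* in TAG/+ (8.43 and 7.57 FPKM) and in TAG/TAG (9.13 and 8.82 FPKM), and *Sycp3* above *Sycp2* in TAG/+ (4.35 and 3.99 FPKM). With the merged exon length, *Stag3* was above *Rec8*, *Hormad1* above *Sycp1* and *Sycp3* above *Sycp2* in TAG/+, and the order in TAG/TAG was as given.

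Levels were next set beside those of the counterparts in the same library. *Stag3* was 2.84-fold higher than *Stag1* in TAG/+ (2.70 to 2.99) and 4.49-fold higher in TAG/TAG (4.27 to 4.72). *Stag1* itself had 82.0 and 71.2 FPKM, and *Stag2* had 7.77 and 5.74 FPKM. The meiotic SA subunit was thus the highest of the SA genes measured in both lines.

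*Rec8* was 0.975-fold the level of *Rad21*, the mitotic kleisin, in TAG/+ (0.934 to 1.02) and 0.559-fold in TAG/TAG (0.529 to 0.590). *Rad21* had 273 and 238 FPKM. *Rad21l*, the other meiotic kleisin, had 3.77 FPKM (68 reads) and 7.41 FPKM (144 reads). *Rec8* was therefore far above *Rad21l* in both libraries, by 70.8-fold in TAG/+ and 17.9-fold in TAG/TAG.

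*Smc1b* was 0.656-fold the level of *Smc1a* in TAG/+ (0.583 to 0.738) and 0.792-fold in TAG/TAG (0.719 to 0.871). This direction rests on the length: with the principal transcript *Smc1b* was higher, at 1.13-fold and 1.36-fold. *Smc3*, which mitotic and meiotic cohesins share, had 29.9 FPKM in both libraries. *Taf7l* was 6.79-fold higher than *Taf7* in TAG/+ and 6.58-fold higher in TAG/TAG. *Hormad1* was 0.258-fold the level of its paralog *Hormad2* in TAG/+ and 0.369-fold in TAG/TAG, and *Sycp2l* had no FPKM in the table used here. The sizes of these ratios also rest on the length: with the merged exon length, in TAG/+, *Stag3* was 5.88-fold the level of *Stag1*, *Taf7l* 3.78-fold that of *Taf7*, *Hormad1* 0.543-fold that of *Hormad2*, and *Rec8* 0.612-fold that of *Rad21* and 24.9-fold that of *Rad21l*. In 4 of the 7 pairs of a member and a paralog, which are *Stag3* with *Stag1* and *Stag2*, *Taf7l* with *Taf7*, and *Rec8* with *Rad21l*, the member was higher in both lines with every length tried.

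Of the 8 genes, none was over 2-fold higher in TAG/TAG and 2 were over 2-fold lower, *Sycp3* and *Rec8*. Among 11929 genes with at least 50 reads over both libraries, 10.8% were over 2-fold higher and 7.26% over 2-fold lower (18.0% in all). The median log2 difference (TAG/TAG minus TAG/+, FPKM plus 0.1) was 0.17 over the 8 genes and 0.00 over these 11929 genes. The members lay on both sides of 0, with 5 higher and 3 lower in TAG/TAG, beside 7028 higher and 6876 lower among all 13904 genes.

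*Sycp3* was 7.26-fold lower in TAG/TAG (3.44 to 17.7), with a log2 difference of -2.68, and 0.813% of genes were lower by more. *Rec8* was 2.01-fold lower (1.89 to 2.13), a log2 difference of -1.0, so its interval includes the limit of 2-fold. Scaled to the sum of reads, or with a pseudocount of 1, *Rec8* was inside that limit and *Sycp3* was the 1 gene past it. *Rec8* had many reads and *Sycp3* few, and neither had a half-life that could be set beside its level.

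The other cohesin genes of the group were higher in TAG/TAG. *Smc1b* was 1.55-fold higher (1.39 to 1.72) and *Stag3* 1.37-fold higher (1.33 to 1.42). *Taf7l* was 1.27-fold higher (1.20 to 1.35). Among the cohesin genes, *Rec8* was thus lower and *Smc1b* and *Stag3* higher in TAG/TAG, and 18.9% of genes were higher by more than *Smc1b*, 7.18% lower by more than *Rec8*. *Sycp1*, *Sycp2* and *Hormad1* had log2 differences of 0.22, -0.06 and 0.11, and the counting intervals of all 3 ratios included 1.

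**Figure D2:**
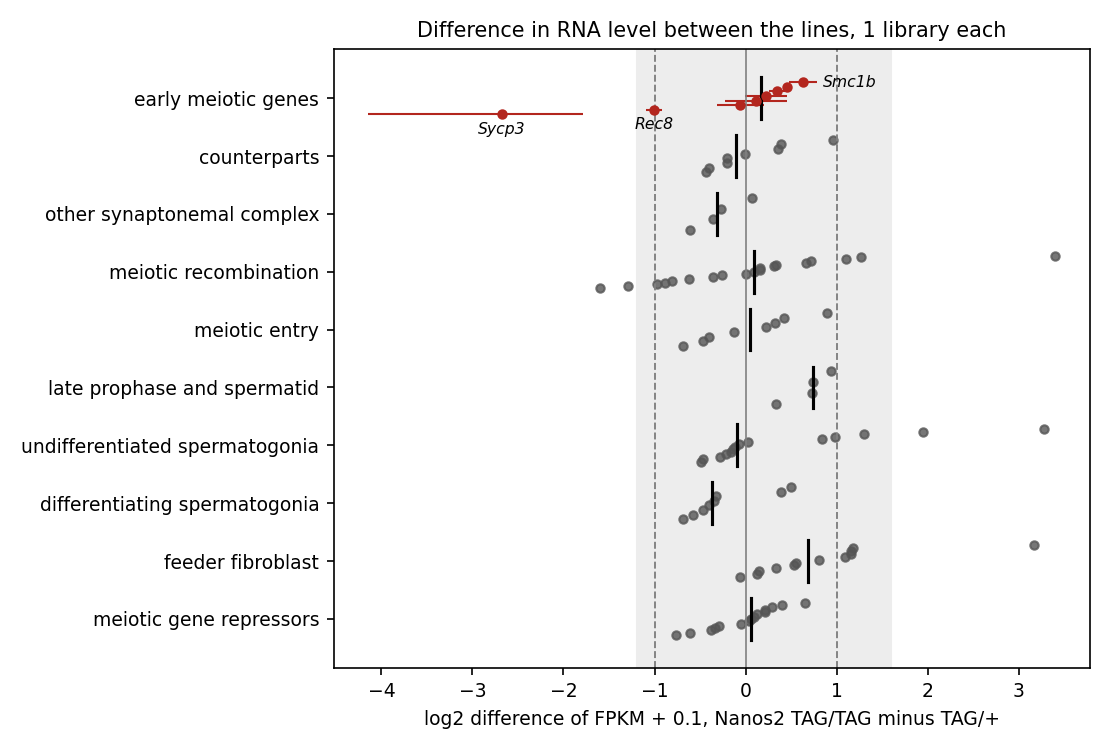
Log2 difference in RNA level (FPKM plus 0.1, TAG/TAG minus TAG/+) for genes with at least 50 reads, by list, with the early meiotic genes in red, their 95% counting intervals as bars and each list's median as a black line; grey shading spans the 5th to 95th percentiles of 11929 genes (-1.2 to 1.6) and dashed lines mark 2-fold. *Sycp3* lies outside the shading, *Rec8* lies at the 2-fold line, and the other 6 early meiotic genes lie between -0.06 and 0.63.

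Among the 5 genes with a half-life, *Smc1b* RNA was the most stable, at 428 min in TAG/+ and 765 min in TAG/TAG. *Taf7l* had 360 and 448 min, and *Stag3* had 347 and 398 min. These 3 transcripts outlived at least 85.6% of all transcripts in each line. *Sycp2* had 264 and 261 min, and *Sycp1*, the shortest-lived, had 198 and 222 min. The median of the group was 347 min in TAG/+ and 398 min in TAG/TAG, beside 224 and 226 min for all 5806 transcripts, and 4 of 5 genes were above the median transcript in each line.

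No member differed by over 2-fold in half-life, where 3.05% of all transcripts were over 2-fold longer and 3.67% over 2-fold shorter in TAG/TAG (6.72% in all). *Smc1b* came nearest, with a half-life 1.79-fold longer in TAG/TAG, and 4.81% of transcripts had a larger rise. *Taf7l* was 1.24-fold longer, *Stag3* 1.15-fold, *Sycp1* 1.12-fold and *Sycp2* 0.988-fold. The half-lives carry no error of their own, so how far these ratios exceed the error of the fits is unknown. For *Smc1b*, *Taf7l*, *Stag3* and *Sycp1* both the level and the half-life were higher in TAG/TAG, and for *Sycp2* both were slightly lower. The counting intervals of the level ratios of *Sycp1* and *Sycp2* included 1. The log2 ratios of half-lives of *Stag3* (0.20), *Sycp1* (0.16) and *Sycp2* (-0.02) lay inside the quartiles of all transcripts (-0.243 to 0.283). How often level and half-life moved in the same direction over all genes was not examined.

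**Figure D3:**
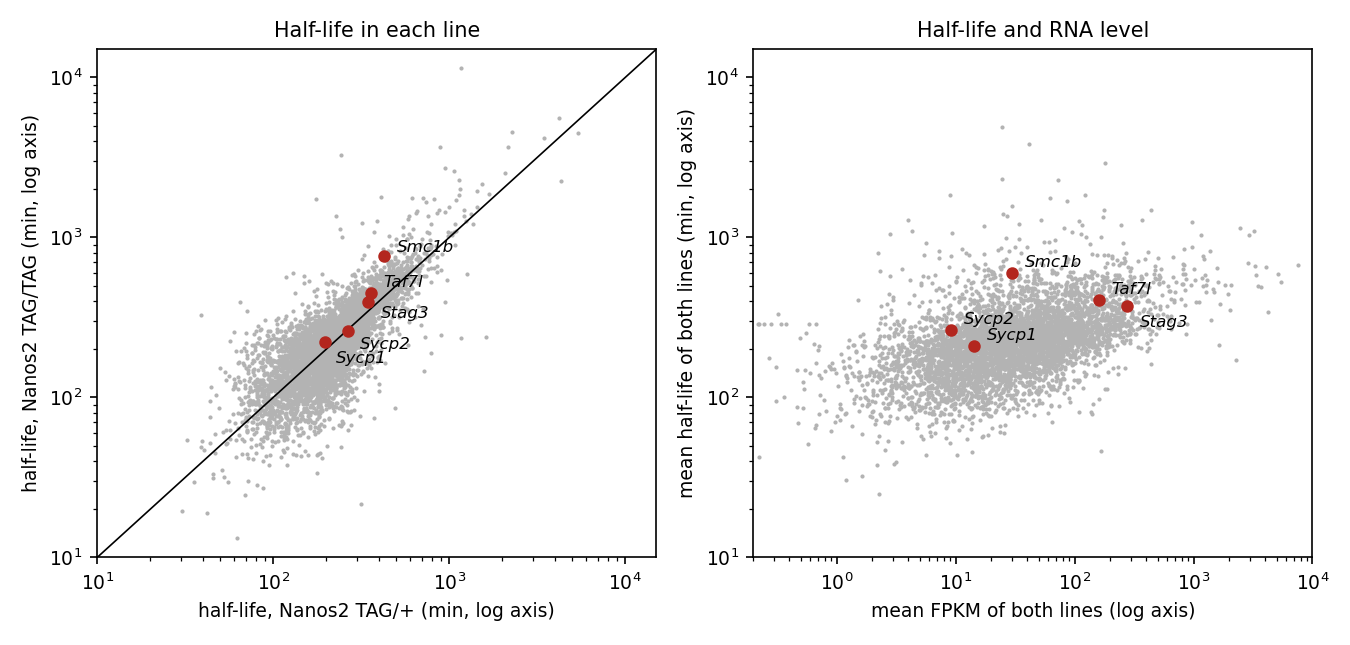
Left, half-life in min (log axes) in the TAG/TAG line against the TAG/+ line for 5806 transcripts (grey) and the 5 early meiotic genes with a half-life (red), with the line of equal values. Right, mean half-life against mean FPKM (log axes) for the 5152 transcripts with both; *Smc1b* lies above the other 4 members in half-life, and *Taf7l* and *Stag3* lie above them in level.

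*Rec8*, *Sycp3* and *Hormad1* had no half-life in the tables used here. The share of genes with a half-life moved with level, from 3.92% below 1 FPKM (the lower of both libraries) and 15.4% at 1 to 5 FPKM to 36.7% at 5 to 10 FPKM and 69.9% at 100 FPKM or more. *Sycp3* was in the class below 1 FPKM and *Hormad1* in that of 5 to 10 FPKM, whereas *Rec8* was in the highest. Of genes at 100 FPKM or more, 52.2% had a half-life where the 3′ UTR was up to 100 bases and 80.6% where it was longer, and SLAM-seq libraries were made from RNA 3′ ends. Their part in the absence of *Rec8* was not tested.

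The mitotic counterparts had half-lives in the same range. *Smc1a* had 452 min in TAG/+ and 468 min in TAG/TAG, beside 428 and 765 min for *Smc1b*. *Stag1* had 245 and 254 min and *Stag2* 230 and 247 min, all shorter than *Stag3*. *Taf7* had 253 and 270 min, shorter than *Taf7l*, and *Rad21* had 355 and 323 min and *Smc3* 292 and 354 min. The members *Stag3* and *Taf7l* were thus both higher in level and longer in half-life than their paralogs in both lines.

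The genes nearest to each member over 4 log2 values (level and half-life in both lines) were sought among 5144 genes. *Sycp1* was nearest to *Ercc6l* and *Far1*, and *Sycp2* to *Map3k5* and *Phf6*. *Taf7l* was nearest to *Iars*, a tRNA synthetase gene, and *Dgat2*, and *Stag3* to *Jpt1* and *Ubr4*. *Smc1b* had its nearest genes at a larger distance, *Fstl1* (0.32) and *Kif1c* (0.36), where *Iars* was at 0.16 from *Taf7l*.

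The wider meiotic programme was then described by lists. Of 5 other genes of the synaptonemal complex, all had an FPKM, and none of the 4 with at least 50 reads was past 2-fold. *Syce2*, a central element gene, had 73.9 FPKM in TAG/+ and 61.3 in TAG/TAG, *Syce1* 33.2 and 34.8 and *Syce3* 34.0 and 22.2. *Tex12*, also of the central element, had 4.35 FPKM (45 reads) and 0.359 FPKM (4 reads), below the minimum of reads; it is named after its values were seen. Its reads in TAG/TAG were thus as scarce as those of *Sycp3*.

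Of 27 genes of meiotic recombination, 20 had an FPKM, and of 19 with at least 50 reads 3 were over 2-fold higher and 2 over 2-fold lower in TAG/TAG. The higher genes were *Rnf212*, a crossover factor (1.47 and 16.5 FPKM), *Tex15* (14.5 and 35.1) and *Psmc3ip*, a cofactor of strand exchange (8.32 and 18.0), the last of which is named after its values were seen. The lower ones were *Ccnb1ip1*, also known as Hei10 (3455 and 1138 FPKM), and *Mlh3*, a mismatch repair factor of crossovers (4.59 and 1.82). *Ccnb1ip1* was far above the rest of the list. *Trip13*, which removes HORMADs from axes, had 34.3 and 22.3 FPKM. *Spo11*, which makes meiotic breaks, *Prdm9*, which places them, and *Dmc1*, the meiotic recombinase, had no FPKM in the table used here, and *Dmc1* had half-lives of 329 and 200 min.

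Of 9 genes of meiotic entry, 8 had an FPKM and none was past 2-fold. *Stra8*, the retinoic acid-induced factor of meiotic entry, had 8.21 FPKM (111 reads) in TAG/+ and 6.18 FPKM (90 reads) in TAG/TAG. *Sohlh2* had 173 and 125 FPKM, *Ddx4* 31.0 and 41.4 and *Rbm46* 18.9 and 22.1. *Stra8* was thus below *Stag3*, *Rec8* and *Taf7l* in both libraries. Of 16 repressors of germline genes, 15 had an FPKM and none was past 2-fold, among them the highest by the mean of both libraries, *Ehmt2* (264 and 280), *Dnmt1* (241 and 278) and *Uhrf1* (115 and 181). Of 14 genes of late prophase and spermatids, 4 had an FPKM (*Hspa2* with 13.3 and 22.3, *Ybx2* with 12.3 and 23.8, *Piwil1* with 5.77 and 9.64, and *Ccna1*). All 4 were higher in TAG/TAG, none past 2-fold, and the others, protamine genes included, had no FPKM in the table used here.

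**Figure D4:**
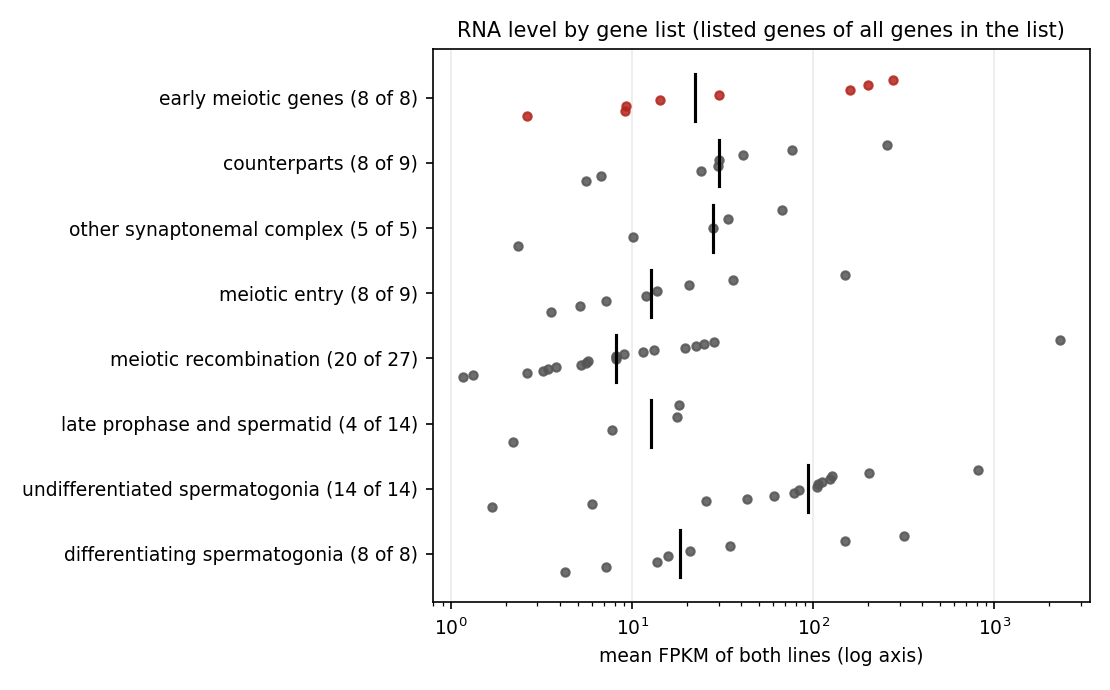
Mean FPKM of both libraries (log axis) for each gene with a value, by list, with the early meiotic genes in red, the median of each list as a black line and the number of genes with a value of those in the list in brackets. *Stag3*, *Rec8* and *Taf7l* lie above 100 FPKM, and 4 of 14 late prophase and spermatid genes have a value.

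Markers of the cell types were measured in the same libraries. All 14 markers of undifferentiated spermatogonia had an FPKM, and 3 were over 2-fold higher in TAG/TAG, beside 10.8% of 11929 genes. These were *Bcl6b* (23.1 and 225 FPKM), *Etv5* (46.0 and 178) and *Ret* (73.2 and 181). Over all 14, 6 were higher and 8 lower in TAG/TAG, with a median log2 difference of -0.09. *Uchl1* had 806 and 820 FPKM, *Sall4* 214 and 192 and *Nanos2* 27.5 and 23.8. All 8 markers of differentiating spermatogonia had an FPKM and none was past 2-fold, with a median log2 difference of -0.37. *Kit* had 38.5 and 30.7 FPKM, *Ccnd2* 263 and 371.

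Of 14 feeder fibroblast markers, 12 had an FPKM, and their sum was 431 FPKM in TAG/+ and 636 FPKM in TAG/TAG. *Pdgfrb* (0.660 and 6.75), *Dcn* (4.44 and 10.2), *Vim* (30.3 and 67.9), *Thy1* (15.7 and 35.2) and *Sparc* (73.9 and 158) were over 2-fold higher in TAG/TAG, *Fn1* had 254 and 280 FPKM, and *Acta2* and *Lum* had no FPKM in the table used here. Of the 12 genes, 11 were thus higher in TAG/TAG and 1 lower, beside 7028 higher and 6876 lower among all 13904 genes. Past 2-fold higher were 5 of the 12, beside 10.8% of 11929 genes. The methods describe a sort away from feeder cells, and whether feeder RNA remained was not tested. Whether each of these markers, *Thy1* among them, is particular to feeder cells was not examined. The part of feeder RNA in the differences of *Sycp3*, *Rec8*, *Smc1b*, *Stag3* and *Taf7l* was not tested. In such bulk libraries, fewer cells with a transcript and less transcript per cell cannot be told apart.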

How the data were processed

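RNA levels were analysed as FPKM, which the authors computed from ribosomal RNA-depleted total RNA (single-end reads of 50 bases) and deposited for 1 library per line. Processing notes name kallisto and DESeq2 without a role, and the annotation is not given in the sources used here. Half-lives in min were deposited after the authors' SlamDunk conversion rates were fitted with a first-order decay, without an error. The 4 CRAC libraries were not analysed here.

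FPKM times the mean transcript length in GENCODE M21 was whole (within 0.02 reads) for 100% of 13867 genes, and for 18.8% with the merged exon length. This gave scaling depths of 10908790 (TAG/+) and 11738620 (TAG/TAG), and recovered reads summing to 10931506 and 11627969. In TAG/+ the depth was below the sum, so it was not the number of reads of the library. The ratio of the depths (TAG/TAG over TAG/+) was 1.0761, beside 1.0758 for the reads of the median gene and 1.0637 for the sums. The fewest reads of a gene in the table were 21 over both libraries. Recovery was tested on simulated data. Levels have exact Poisson intervals and ratios exact (Clopper-Pearson) intervals on these reads. Log2 differences used a pseudocount of 0.1 FPKM, and counts past 2-fold a minimum of 50 reads. Symbols of the same gene were counted once per list.

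The members and lists were chosen with earlier results of these data known. Named were all members and counterparts, and from each other list the 3 highest genes, up to 4 genes past 2-fold, and *Stra8*, *Nanos2*, *Spo11*, *Dmc1*, *Kit* and *Prdm9*. Names are as in the table, and promoters are from RefSeq (GRCm38.p6). 3′ UTRs were taken after the stop codon of the principal transcript (GENCODE M21). Uniqueness was counted over all exonic 50-mers on GRCm38. Alternatives were other lengths, pseudocounts, limits, scalings and reference sets. Python 3.11.15, numpy 2.4.6, pandas 2.3.3, scipy 1.17.1, numba 0.67.0 and matplotlib 3.10.9 were used.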

Additional observations from a re-analysis of the deposited data

How the results depend on the processing

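No paired analysis was possible because each line had 1 RNA-seq library and 1 half-life per transcript, so no test was made; for the same reason no replicate could be left out. With a limit of 1.5-fold, 1 gene (*Smc1b*) was higher in TAG/TAG. Scaled to the sum of reads, or with a pseudocount of 1, 1 gene (*Sycp3*) was over 2-fold lower; both were chosen after seeing the data. Without a minimum of reads, or centred on the median gene, 2 genes were lower. Neither setting could change this count, since all 8 genes had at least 50 reads and centring moved log2 differences by only 0.0005. The median level of the group was 10.1 (TAG/+) and 14.1 FPKM (TAG/TAG) with the merged exon length, and 10.6 and 14.4 FPKM with the principal transcript length, the latter chosen after seeing the data, as were the lengths for the ratios to paralogs. The ratio of *Smc1b* to *Smc1a* turned from below to above 1, at 1.39 (TAG/+) and 1.68 (TAG/TAG) with the merged length and at 1.13 and 1.36 with the principal length. With half-lives up to 540 min, which leaves out *Smc1b* in TAG/TAG, the median half-life there was 329 min. The log2 difference of *Sycp3* was -1.78 with a pseudocount of 1. In all, 102 alternative values were computed, of which 59 stayed within a limit. The limit was the counting interval, the difference between the lines, or a 1.5-fold change for counts. For half-life ratios it was the median absolute log2 ratio of all transcripts. Another 39 moved without a change of direction, most of them with the gene length, and the 4 that turned are those of *Smc1b* to *Smc1a*. The number of genes with a NANOS2 motif was 3 with the longest 3′ UTR as well.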
